A study of Rattus norvegicus with 8 samples.

Results

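Insulin-like growth factor (IGF) signalling genes were followed in granulosa cells of rat ovarian follicles, which enclose and nurse the oocyte and produce oestradiol. The members were 8 genes chosen by name: the ligand Igf1, its receptor Igf1r, the binding proteins Igfbp2, Igfbp3, Igfbp4, Igfbp5 and Igfbp6, and the protease Pappa. Every probe set that the platform annotation pairs with exactly 1 of these symbols was taken, which gave 16 of the 31099 probe sets and 7 of the 8 genes, out of 14217 named genes. No probe set was listed for Pappa, which is therefore not analysed here. RNA was measured on 8 one-colour Affymetrix whole-genome arrays, 1 per sample. Per the series' design text, all animals were immature rats that had received eCG, a gonadotropin that drives follicle growth. They were given either anti-eCG antibody 24 h later, which sends follicles into atresia (degeneration), or pre-immune serum. Oocytes of the antibody-treated rats gave 0% development to term, against 30 to 50% for those of serum-treated rats. The labels of the arrays hold only a number and put none of them in either treatment, so no comparison between treatments was made. The sources used here do not say how many animals contributed to an array.

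IGF1 is a secreted peptide that acts on granulosa cells together with follicle-stimulating hormone to promote their growth and oestradiol production, through the tyrosine kinase receptor encoded by Igf1r. The binding proteins hold IGF in the follicle and control how much of it reaches the receptor, and proteases such as PAPP-A release it by cleaving them, IGFBP-4 above all. In the rat ovary Igf1 is known as a granulosa cell transcript of healthy growing follicles and Igfbp4 and Igfbp5 as granulosa cell transcripts of atretic ones, while Igfbp2 and Igfbp6 are known from theca and interstitial cells and Igfbp3 from luteal tissue.

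Values are the deposited MAS5 signals after scaling each array to a common median. Each series of 8 values runs in the order of arrays 2074, 2076, 2194, 2195, 2196, 2197, 2198 and 2199. The 40th percentile of each array, 273 to 471 in signal, served as a floor under which values have no order, and a probe set counted as measured when 2 or more arrays had it above their median. Spread is given as the inner range, the second highest over the second lowest array, with values under the floor raised to it. It is written as "at least" where a raised value entered it, except in 1387347_at of Igfbp5, where both ends were floors. Arrays 2074 and 2076 stood apart from the other 6. Their deviations from each probe set's median correlated at r = 0.68 over 10109 bright probe sets, against -0.37 to 0.15 for the 27 other pairs of arrays. Both lay beyond the other 6 in 27.4% of the 10513 genes measured. Array 2195 had the highest floor, at 471. Of the granulosa markers, 10 of 11 were listed and all 10 were measured, while Fshr was not listed. Of the 5 leukocyte markers 4 were measured: Cd14 was above the median on all 8 arrays, at 925 to 1882, Csf1r and Cd68 on 7 arrays each, with up to 1891 and 933, and Cd74 on 5. Ptprc was at the floor on all 8. Each sum over a marker list, here and below, adds the brightest probe set of every listed gene, measured or not. The summed leukocyte signal was 3102 to 5012, highest on array 2198. Of the 4 endothelial markers listed, Tek, with up to 1405, and Pecam1, with up to 609, were measured, and Kdr and Vwf were not. The summed signal of the 4 was 658 to 2154, highest on array 2195. Of the 5 oocyte markers Zp2, with up to 801, and Gdf9, with up to 1189, were measured, and Zp1, Zp3 and Bmp15 were not. The summed oocyte signal was 760 to 2916, also highest on array 2195. The part of these cells' RNA in the results was not tested. The summed signal of the erythroid markers was 48897 on array 2074, against 3797 to 13218 on the other 7. In bulk RNA, fewer cells of a type and less RNA per cell cannot be told apart.

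Promoter sequences for 4 genes are shown because these genes mark the ends of the pattern that follows: Igf1, the ligand, and Igfbp4 varied over 2-fold, Igf1r varied little, and Igfbp5 had 1 array well above the rest. Each is the stretch of 250 bases before the RefSeq start in the GRCr8 assembly, at chr7:24172282-24172531 on the plus strand for Igf1, chr1:130959747-130959996 on the plus strand for Igf1r, chr10:84491221-84491470 on the plus strand for Igfbp4 and chr9:81914188-81914437 on the minus strand for Igfbp5. Sequences run 5′ to 3′, and capitals mark a match to 1 of 5 motifs searched on both strands.
Igf1: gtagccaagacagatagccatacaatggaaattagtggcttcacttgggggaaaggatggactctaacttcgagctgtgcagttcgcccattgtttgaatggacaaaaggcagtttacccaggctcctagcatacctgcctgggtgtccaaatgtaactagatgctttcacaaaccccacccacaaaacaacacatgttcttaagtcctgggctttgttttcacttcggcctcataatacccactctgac
Igf1r: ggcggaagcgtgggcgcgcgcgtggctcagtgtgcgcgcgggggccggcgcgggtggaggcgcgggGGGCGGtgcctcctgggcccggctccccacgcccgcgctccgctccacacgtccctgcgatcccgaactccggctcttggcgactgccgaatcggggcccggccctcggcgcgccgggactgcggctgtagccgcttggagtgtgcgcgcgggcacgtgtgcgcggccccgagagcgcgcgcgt
Igfbp4: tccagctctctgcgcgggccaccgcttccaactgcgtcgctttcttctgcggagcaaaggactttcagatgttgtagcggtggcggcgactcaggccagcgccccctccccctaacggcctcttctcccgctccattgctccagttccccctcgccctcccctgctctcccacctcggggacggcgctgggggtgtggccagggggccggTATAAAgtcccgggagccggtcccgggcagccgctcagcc
Igfbp5: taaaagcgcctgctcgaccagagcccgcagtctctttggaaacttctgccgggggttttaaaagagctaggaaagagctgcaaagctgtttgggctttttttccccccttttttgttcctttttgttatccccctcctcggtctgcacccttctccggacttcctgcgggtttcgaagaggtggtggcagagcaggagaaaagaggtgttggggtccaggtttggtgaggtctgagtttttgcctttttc
The TATA box was searched as TATAAA, which 12.9% of all 33469 promoters of that length hold. The GC box, GGGCGG, was held by 30.5%. The half-site of the cAMP response element, TGACG, was held by 18.2%. The site of NR5A receptors, AAGGTCA, was held by 3.99% and the forkhead site, GTAAACA, by 3.21%. Igfbp4 had a TATA box 40 to 35 bases before the start. Igf1r had a GC box 184 to 179 bases before the start. Its promoter was 79.6% G and C with 45 CpG, more CpG than 99.6% of promoters. The promoter of Igf1 was 46.8% G and C with 3 CpG, that of Igfbp4 68.8% with 21 and that of Igfbp5 51.6% with 8, against medians of 51.2% and 5 over all promoters. None of the 5 motifs was found in the Igf1 and Igfbp5 windows, which says nothing of the factors themselves. Among the other members with a promoter, Igfbp2 had a GC box and Igfbp6 a forkhead site, and Igfbp3 had none of the 5.

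Of the 7 listed genes, 6 were measured, with 11 of their 16 probe sets, and Igfbp3 was not. The inner range reached 2-fold in 3 of the 6, namely Igf1, Igfbp4 and Igfbp6, against 29.8% of all 10513 genes measured. On the log2 scale the inner range had a median of 0.98 over the 6 genes, against 0.78 over all genes measured. The receptor had the smallest inner range of the 6, except that Igfbp5 was narrower without array 2197 or 2199 (1.20 and 1.21-fold, against 1.23-fold for Igf1r in both). The widest cannot be named, since the values of Igfbp2 and Igfbp6 are lower bounds.

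Igf1, the ligand, varied over 2-fold in each of its 3 probe sets. The brightest, 1370333_a_at, gave signals of 5473, 2469, 6865, 1796, 3913, 5052, 5166 and 2563. Arrays 2076, 2195 and 2199 were low, at 2563 or less, and the other 5 were at 3913 or more. The inner range was 2.22-fold, wider than in 80.2% of genes measured and in 88.1% of those of like signal, and the full range was 3.82-fold. Over arrays 2194 to 2199 without array 2195 the inner range was 1.31-fold. The second probe set, 1388469_at, gave 3261, 1404, 3248, 2398, 1864, 1337, 2494 and 1249, with an inner range of 2.43-fold. That range was 1.85-fold without array 2074, without array 2194 and over arrays 2194 to 2199. Arrays 2074 and 2194 were the highest pair in both probe sets, and arrays 2076 and 2199 were among the 3 lowest in both. They parted on array 2195, which was the lowest of all in 1370333_a_at and above the median in 1388469_at, and on array 2197, which was above the median in the first and second lowest in the second. The weakest, 1382599_at, ran from 198 on array 2197, under the floor, to 735 on array 2074, and had 730 on array 2195. Its inner range of 2.44-fold was 1.18-fold over arrays 2194 to 2199 and 1.52-fold with quantile normalization. Leaving out array 2074, 2076, 2195 or 2197 in turn gave 1.66 to 1.72-fold. With the 3 probe sets averaged, the inner range of Igf1 was 1.98-fold, just under 2-fold.

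Igf1r, the receptor, varied little. Probe set 1392492_at gave 23928, 19085, 19457, 22670.3, 22503, 23838, 23126 and 27066. Arrays 2076 and 2194 were the lowest and array 2199 the highest. It had an inner range of 1.23-fold, wider than in only 4.22% of genes measured and 9.60% of those of like signal, and a full range of 1.42-fold. The second probe set, 1368123_at, gave 13592, 11907, 8719, 11003, 8960, 9031, 8871 and 8617. In this probe set arrays 2074 and 2076 both lay above the other 6, which the brighter probe set did not show, and which held for 13.8% of all genes measured. Its inner range was 1.37-fold.

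**Figure D1:**
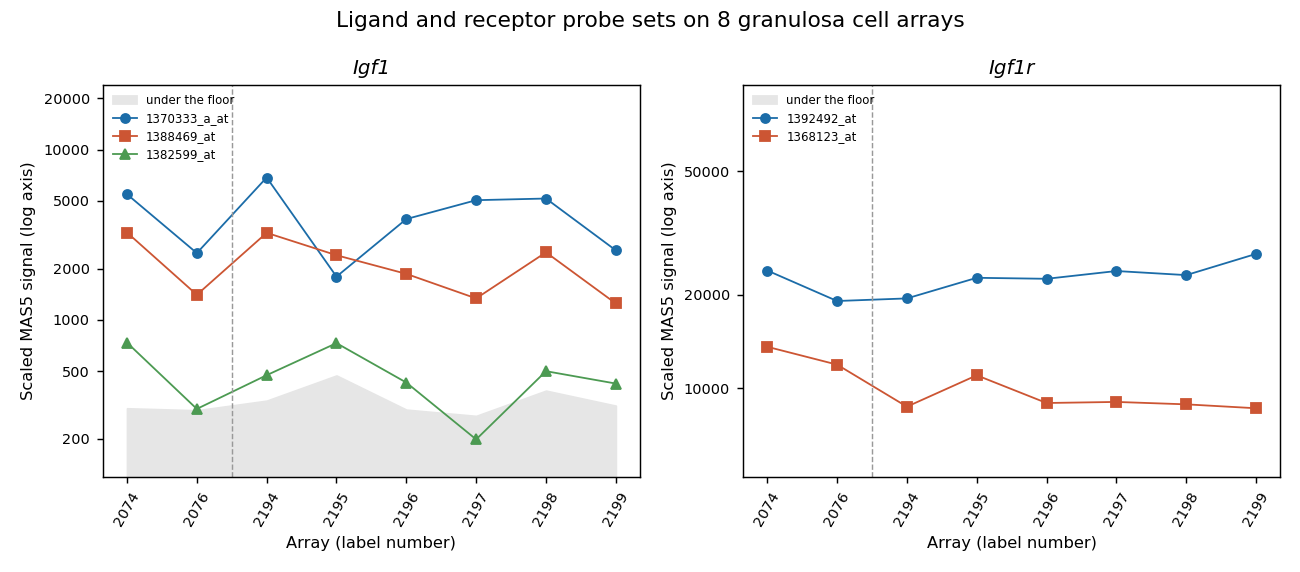
Scaled MAS5 signal (log axis) of every Igf1 and Igf1r probe set on each of the 8 arrays, named by label number. Points are single arrays, lines only join the points of 1 probe set, grey marks signals under the floor and the dashed line separates arrays 2074 and 2076. The brightest Igf1 probe set runs from 1796 to 6865, and the brightest Igf1r probe set from 19085 to 27066.

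Igfbp4, which restrains IGF action in the follicle and is the main substrate of PAPP-A, had the widest inner range among the 4 members whose range is not a bound. Its only probe set, 1371462_at, gave 1427, 1596, 1244, 449, 2328, 1546, 871 and 2622. Array 2195 was under the floor, array 2198 was the next lowest, and arrays 2196 and 2199 were the highest. The inner range was 2.67-fold, wider than in 91.5% of genes measured and 92.5% of those of like signal, and the full range was at least 5.57-fold. Leaving out array 2195, 2196, 2198 or 2199 in turn gave 1.83 to 1.87-fold, under 2-fold each time and below Igf1 at 2.12 to 2.22-fold.

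Igfbp5, a matrix-associated binding protein, lay in a narrow band on most arrays. Probe set 1370960_at gave 3841, 4074, 3789.6, 3476, 4572, 6102, 4034 and 11116. Array 2199 stood 1.82-fold above the next array, and 6 arrays lay between 3476 and 4572. The inner range was therefore only 1.61-fold, near the median of all genes, while the full range was 3.20-fold. The second probe set, 1387348_at, gave 2895, 3575, 2321, 1835, 3663, 1908, 2895 and 2619. In it array 2199 was unremarkable, arrays 2076 and 2196 were highest, and array 2195 was again the lowest, with an inner range of 1.87-fold. Another probe set, 1387347_at, was under the floor on 4 arrays and reached 669.7 on array 2198. Its inner range of 1.56-fold was the floor of array 2195 (471) over that of array 2074 (302), so it is not a bound on signal. The remaining pair, 1396152_s_at and 1397830_at, was not measured, with signals under the floor on 8 and 7 arrays.

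The binding proteins known from theca and interstitial cells were weak. Igfbp2, with 1 probe set, 1367648_at, gave 568, 463, 667, 94.7, 131, 381, 1019.5 and 522. Arrays 2195 and 2196 were under the floor and array 2198 was the highest. The inner range was at least 1.75-fold. It was at least 3.54-fold with a floor at the 25th percentile and 5.10-fold without a floor, so its size rests on signals too low to be ordered. Igfbp6, which binds IGF2 in preference to IGF1, was measured in probe set 1372168_s_at, whose suffix marks probes shared by more than 1 transcript. It gave 308, 513, 297, 573, 227, 672, 972 and 738. Arrays 2194 and 2196 were under the floor, array 2074 was just above it, and arrays 2197 to 2199 were the highest. The inner range was at least 2.39-fold. Its other probe set, 1387625_at, was under the floor on 6 arrays and highest on array 2195, at 742. Igfbp3, the main carrier of IGF in blood, was not measured: 1367652_at exceeded the floor on array 2199 alone, at 476, and 1386881_at on array 2195 alone, at 1054.

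Markers of theca and stroma were read beside these weak signals. Of the 6 theca markers 5 were listed and 4 measured, and their summed signal was highest on array 2074, at 9098, with 7151 on array 2198 and 5071 to 6391 on the rest. Cyp17a1, the theca enzyme of androgen synthesis, was highest on array 2198 at 1159, against 43.5 to 658 elsewhere, and was under the floor on 5 arrays. The other measured theca markers were highest elsewhere: Insl3 on array 2195, at 1010, the brightest Nr2f2 probe set on array 2076, at 3299, and Aldh1a1 on array 2074, at 5253. Of the 7 stroma markers all were listed and 6 measured, and their summed signal was highest on array 2074, at 7270.03, next on array 2198, at 6772, and lowest on array 2194, at 3295. The smooth muscle actin gene Acta2 and Dcn were highest on array 2198, at 3072 and 506. By the brightest probe set, Col1a2 and Col3a1 were highest on array 2074, Col1a1 on array 2199 and Lum on array 2195. Igfbp2 and Igfbp6 had their highest signals on array 2198, and the part of theca or stromal RNA in this was not tested.

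**Figure D2:**
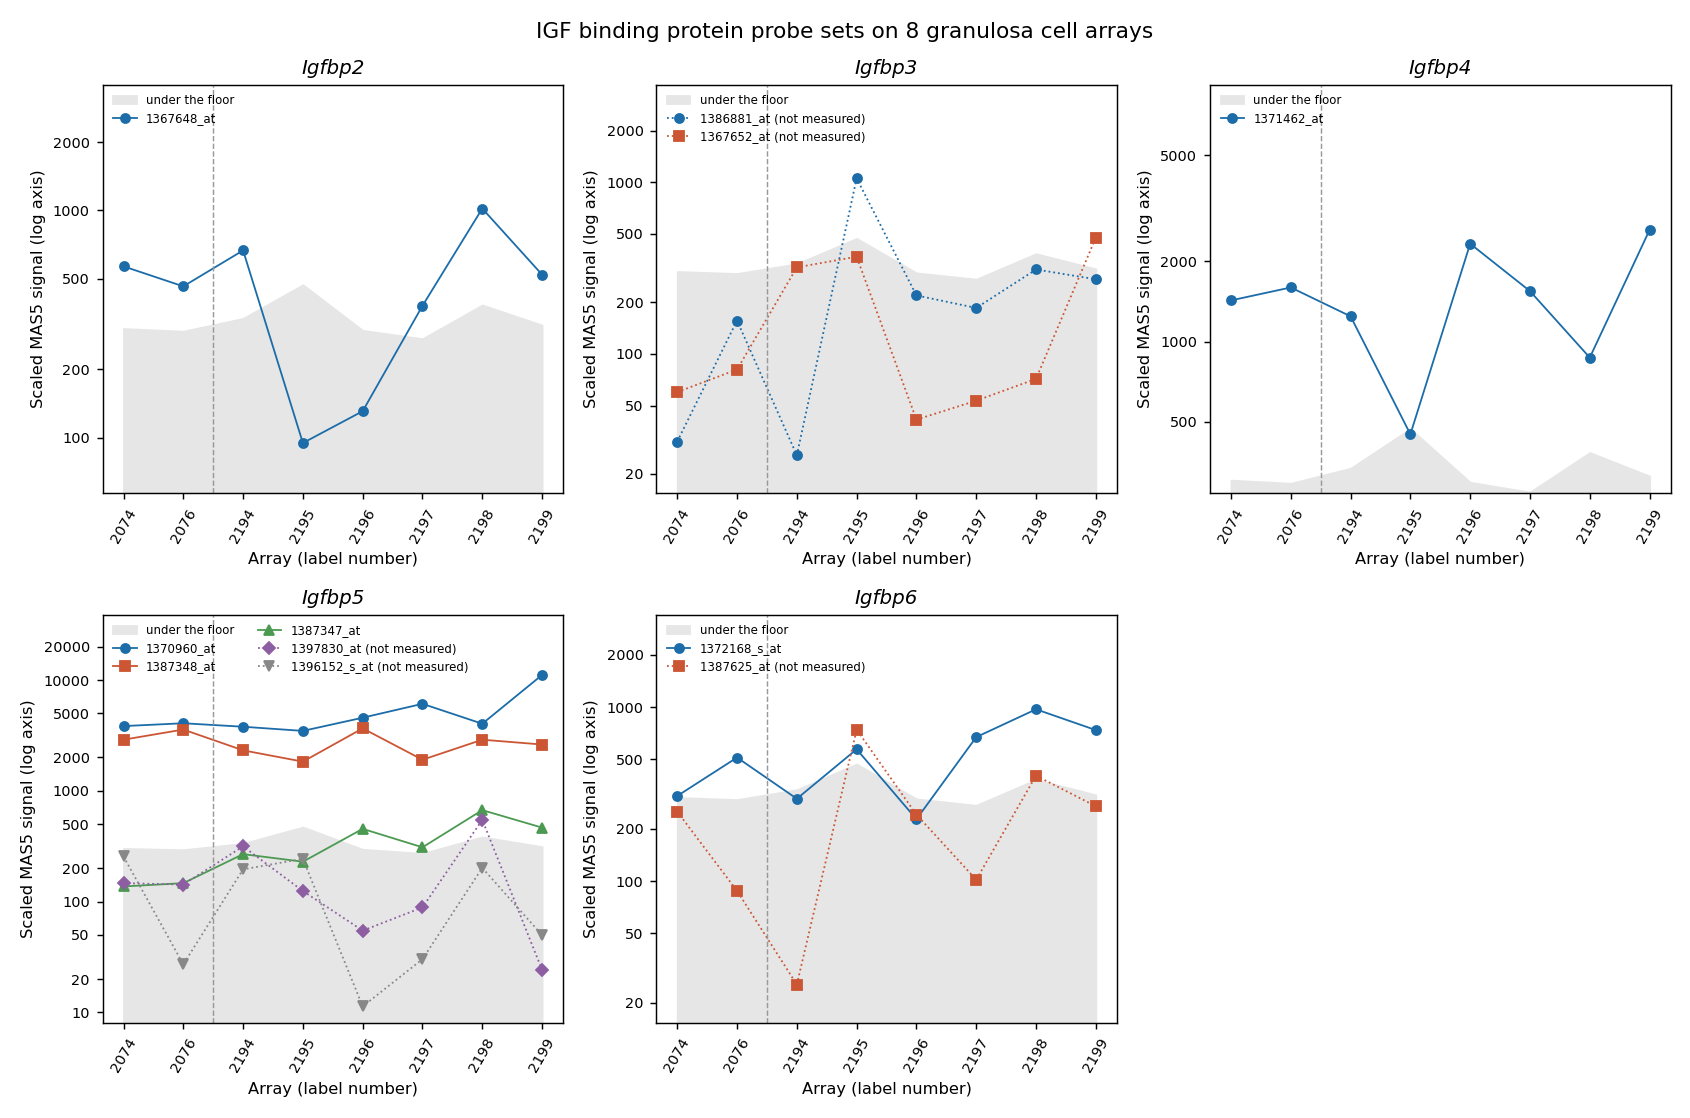
Scaled MAS5 signal (log axis) of every probe set of the 5 binding protein genes on each of the 8 arrays. Points are single arrays, solid lines join measured probe sets and dotted lines those not measured, grey marks signals under the floor and the dashed line separates arrays 2074 and 2076. Igfbp4 drops to 449 on array 2195, Igfbp5 reaches 11116 on array 2199 in 1 probe set, and both Igfbp3 probe sets are under the floor on 7 arrays.

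Certain arrays recurred as extremes. Array 2195 was the lowest of the 8 in 4 of the 6 genes measured, Igf1, Igfbp2, Igfbp4 and Igfbp5, whereas it was the lowest in 14.1% of all genes measured and the highest in 23.6%. These counts rank signals without the floor. In Igfbp2 array 2196 was also under the floor, so the order of these arrays is not settled there. Array 2199 was the highest in 3 of the 6, Igf1r, Igfbp4 and Igfbp5, against 10.5% of all genes measured. Both counts came out the same without scaling and with quantile normalization. They rest on the brightest probe set of each gene. Array 2195 was not the lowest in either weaker probe set of Igf1. It was above the median in 1388469_at, at 2398, and second highest in 1382599_at, at 730. In Igfbp5 it was again the lowest in 1387348_at, at 1835, but not in 1387347_at, where it was under the floor. In 1368123_at of Igf1r array 2199 was instead the lowest, at 8617. In Igfbp5 it was below the median in 1387348_at, at 2619, and second highest in 1387347_at, at 466. By the brightest probe set, in none of the 6 did arrays 2074 and 2076 both lie beyond the other 6 arrays, against 27.4% of all genes, while among the weaker probe sets they did in 1368123_at of Igf1r, above, and in 1387347_at of Igfbp5, below and under the floor.

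**Figure D3:**
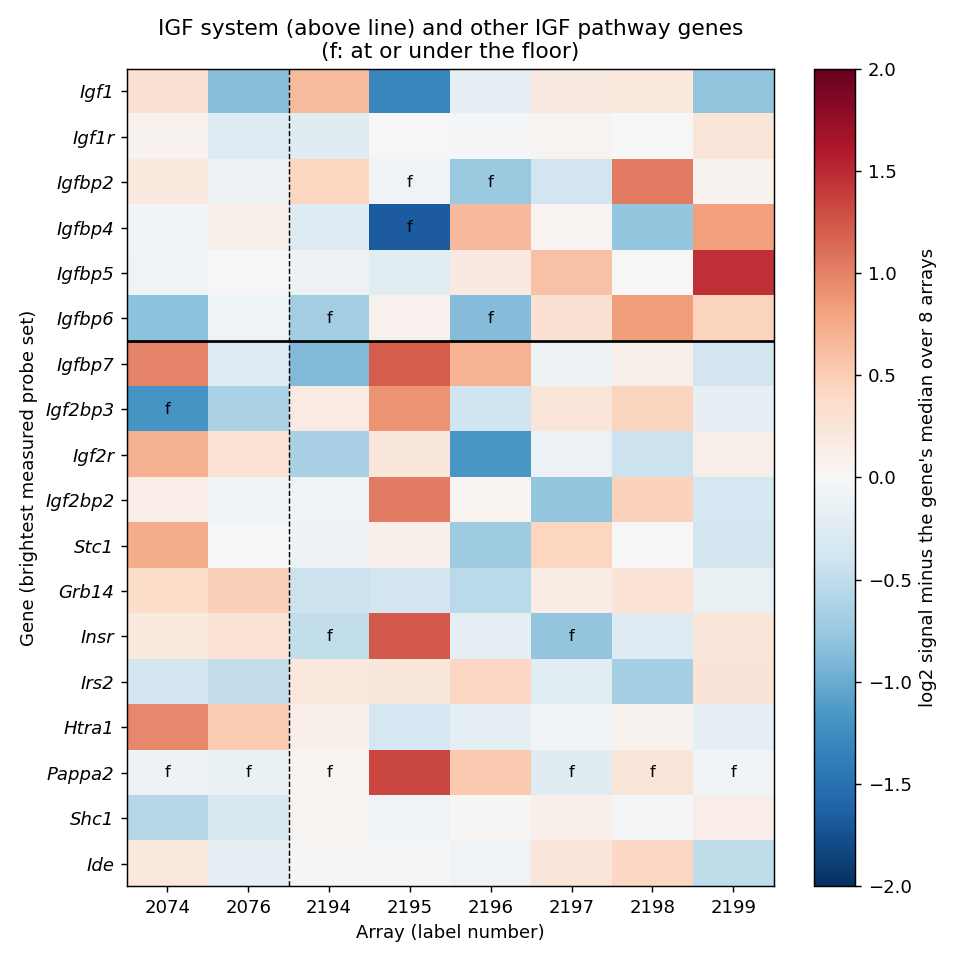
Log2 signal minus the gene's own median over the 8 arrays, for the brightest measured probe set of 6 IGF system genes (above the line) and 12 other IGF pathway genes. Columns are arrays by label number, red is above and blue below the median, f marks values at or under the floor, and the dashed line separates arrays 2074 and 2076. Igf1 and Igfbp4 are lowest on array 2195 and Igfbp5 is highest on array 2199, while the Igf1r row stays pale.

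Because arrays 2074 and 2076 stood apart, relations between genes were taken over arrays 2194 to 2199 only. None of the 15 pairs among the 6 genes passed a Benjamini-Hochberg adjusted p of 0.05 by an exact two-sided permutation test, for which the smallest possible p is 0.0028. Before adjustment 0 pairs by Pearson's r and 1 by Spearman's rho fell under 0.05. That pair was Igfbp4 and Igfbp5, with rho = 0.89 (exact permutation p = 0.0333, adjusted 0.5) and r = 0.73 (p = 0.0931, adjusted 0.698). Without the 2 arrays farthest from the Igfbp4 median r was 0.42. The largest r was 0.82, between Igf1r and Igfbp5 (exact permutation p = 0.05, adjusted 0.698), with rho = 0.71 (p = 0.136, adjusted 0.681) and r = 0.74 without 2 arrays. These relations used the brightest probe sets, in which array 2199 was highest in Igf1r, Igfbp4 and Igfbp5. It was lowest in 1368123_at of Igf1r, at 8617, and below the median in 1387348_at of Igfbp5, at 2619. Relations between genes were not run with these weaker probe sets. Igf1 gave r = 0.25 with Igfbp4, r = -0.20 with Igfbp5 and r = -0.53 with Igf1r (exact permutation p = 0.633, 0.717 and 0.299, adjusted 0.768 each), with rho = -0.09, -0.09 and -0.37 (p = 0.919, 0.919 and 0.497, adjusted 0.932 to 1). Whether the 6 arrays hold both treatments is not given, so a relation between genes and a difference between treatments cannot be told apart.

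Probe sets of the same gene were compared in the same way. Of 7 such pairs in Igf1, Igf1r and Igfbp5, 4 had a positive r and 0 fell under an exact permutation p of 0.05 by either coefficient. The brightest pair gave r = 0.31 in Igf1 (rho = 0.60, exact permutation p = 0.531 and 0.242), r = -0.09 in Igf1r (rho = -0.14, p = 0.686 and 0.803) and r = 0.09 in Igfbp5 (rho = 0.37, p = 0.872 and 0.497), with adjusted p of 0.846 to 0.919 throughout. Without the 2 arrays farthest from the median r was 0.64, -0.37 and 0.99. The median r for the brightest pair of measured probe sets was 0.15 over 2664 genes on these arrays (quartiles -0.24 and 0.50), as a description across genes, which are not independent replicates. Over arrays 2194 to 2199 the lowest array was the same in the brightest pair in 1 of the 3 members, Igfbp5, and the highest in 1 of 3, Igf1, against 20.4% and 23.0% of those 2664 genes. Over all 8 arrays the lowest was the same in Igfbp5 alone and the highest in 0 of 3, against 17.0% and 19.9%.

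Of 21 other genes of the IGF pathway all were listed and 12 were measured, and 2 of the 12 reached an inner range of 2-fold, with a median of 0.78 on the log2 scale. The ranges of Insr (at least 1.69-fold) and Pappa2 (at least 1.58-fold) are lower bounds. The count and the median are therefore minimum values, and the place of these genes among the widest is not settled. Igfbp7, a related secreted protein of low IGF affinity, had 2.54-fold and ran from 360.4 on array 2194 to 1545 on array 2195. Igf2bp3, an RNA-binding protein of Igf2 mRNA, had 2.11-fold and ran from 55.8 on array 2074, under the floor, to 1269 on array 2195. Both were thus highest on the array where Igfbp4 and the brightest Igf1 probe set were lowest. Array 2195 was the highest in 23.6% of all genes measured. By the brightest probe set it was also the highest in Igf2bp2, Insr and Pappa2. Igf2r, which clears IGF2, gave 3543, 2644, 1391, 2538, 967, 1996, 1603 and 2361, with 1.90-fold. Its weaker probe set, 1367636_at, had 1.55-fold. There array 2076, at 1296, was below arrays 2194, 2195, 2198 and 2199, while array 2074 was the highest, at 2038. Igf2bp2 had 1.77-fold, Stc1, whose product inhibits PAPP-A, 1.75-fold, and the insulin receptor-binding adaptor Grb14 1.74-fold. The narrowest were the insulin-degrading protease Ide at 1.33-fold and the adaptor Shc1 at 1.35-fold. In the brightest probe sets, arrays 2074 and 2076 both lay above the other 6 in Igf2r, in Grb14 and in Htra1. Htra1 encodes a protease that cleaves IGF binding proteins. Both arrays lay below the other 6 in Shc1 and Igf2bp3. That is 3 and 2 of 12, against 13.8% and 13.6% of all genes measured. The Htra1 signals of arrays 2074 and 2076 were 25536 and 18668, and those of the rest were 10316 to 14105. Not measured were Igf2, Irs1, Igfbp1, Igfals, Igfbpl1, Stc2, Ghr, Grb10 and Igf2bp1.

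Genes with the most similar profile over the 8 arrays were looked up for the 3 genes whose inner range reached 2-fold, among 10512 others, so that high values arise from the choice itself. Igf1 was most like Dsc2, a desmosomal cadherin (r = 0.98, and 0.98 over arrays 2194 to 2199), and Mesd (r = 0.96 and 0.96), a chaperone of LRP receptors. Dsc2 gave 3528, 2357, 4523, 1929, 2925, 3263, 3229 and 2253, low on the same arrays as Igf1, with a smaller inner range of 1.57-fold. Igfbp4 was most like Zc3h7a (r = 0.94 and 0.95) and Zkscan3 (r = 0.93 and 0.93), both zinc finger genes. Igfbp6 was most like Mindy4 (r = 0.97 and 0.97) and Smim26 (r = 0.96 and 0.96).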

How the data were processed

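Total RNA of granulosa cells was labelled with biotin and hybridised, 1 Affymetrix array per sample, per the labels' protocols. The deposited table holds signal intensity, linear and not log-transformed, that the authors computed with MAS5, per the submitters' processing notes (version not given in the sources used here). Trimmed by 2% at each end, the mean was 1500.5 to 1500.6 on every array, so arrays had been scaled before deposit. No detection calls were used.

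Of 31099 probe sets, 57 were controls and were left out. The rest were put on the log2 scale and scaled to the common median of those above the array median on all 8 arrays. The brightest measured probe set stood for a gene. The platform annotation gave 20832 probe sets 1 symbol and 436 several, the latter left out. The annotation can be old, and 20764 were found by identifier in a GRCr8 gene table, which changed 0 symbols. Genes of like signal are those in the same of 10 equal bins of mean log2 signal. Promoters are from RefSeq and matched 7 of the 8 members.

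The 8 arrays were left without a group, so no test between groups, group mean or SD was made; their small number limits precision. Correlations used signals raised to the floor. Those between members and between probe sets of 1 gene used exact permutation tests with Benjamini-Hochberg adjustment. The members and lists were chosen with earlier results of these data known. All members were named, with the 6 widest and 2 narrowest measured pathway genes (lower bounds taken as values), those not measured, and the 2 genes most like each member over 2-fold. Htra1 was named with values to complete a count, and Cyp17a1, Acta2 and the other cell type markers after their values were seen. Alternatives were quantile normalization or no scaling, no floor or one at the 25th percentile, the full range, other filters, the mean of probe sets and fewer arrays. The promoter motifs were chosen after the signals were seen. The inner range step was tested on simulated data with less noise than these arrays show, and checked in bright probe sets only. The correlation step was tested on short made-up series. Neither gives an error rate for these data. Python 3.11.15, numpy 2.4.6, pandas 2.3.3 and scipy 1.17.1 were used.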

Additional observations from a re-analysis of the deposited data

Results flagged for a closer look

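Dixon's ratio is the gap between the extreme array and its neighbour over the whole range of log2 signals raised to the floor. It passed its 95% critical value for 8 arrays in 0 of the 28 measured probe sets of the IGF system and other pathway genes. The closest member was Igfbp5 on array 2199, at 0.516. Low arrays under their floor were not tested at their own signal. In Igf2bp3 probe set 1393202_a_at, array 2074 had 55.8 and entered at its floor of 302. The next lowest array had 440.6, and the ratio at the low end was 0.263. The test was not run without the floor.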

How the results depend on the processing

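The count of genes whose inner range reached 2-fold was 3, and 3 or 4 without scaling, with quantile normalization and with the lower floor or none, Igfbp2 being the gene added. It was 5 when the full range was used, 1 when a probe set had to exceed the median on all 8 arrays (Igf1), and 1 over arrays 2194 to 2199 without array 2195 (Igfbp6), an alternative chosen after seeing the data. Leaving out 1 array gave 2 to 3. The scaling alternatives for arrays 2195 and 2199 as extremes were also chosen after seeing the data. Of 44 inner ranges under other scalings or floors, 39 stayed within 1.5 times, as did 88 of 88 with 1 array left out. With the full range, which is wider by construction, 7 of 11 did. Igfbp5 probe set 1387347_at reached at least 3.17-fold with the lower floor. Signals near the floor limit Igfbp2, Igfbp3 and Igfbp6. No paired analysis was possible because the labels give no groups. Relations over all 8 arrays were not run, since arrays 2074 and 2076 stood apart.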

Other observations

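The 8 unassigned arrays did not split alike in different members. In the brightest Igf1 probe set the widest gap was 1.53-fold, with 3 arrays (2076, 2195 and 2199, at 2469, 1796 and 2563) below it and 5 above, at 3913 or more. In Igfbp4 it was at least 1.85-fold and set array 2195 (449) below the other 7. In Igfbp5 probe set 1370960_at it was 1.82-fold and set array 2199 (11116) above the other 7. In Igf1r probe set 1392492_at it was 1.16-fold, with arrays 2076 and 2194 below it. Igfbp2 and Igfbp5 are neighbours on 1 chromosome in the GRCr8 gene table, with 0 genes between them and on opposite strands, and were highest on different arrays, 2198 and 2199, and lowest on array 2195, where Igfbp2 was under the floor, as it was on array 2196.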
